A study of Rattus norvegicus with 30 samples.

Results

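The expression of 9 interferon and immunoproteasome genes was followed in injured rat peripheral nerve: the ligand gene Ifng, the transcription factor genes Irf1 and Irf7, the antiviral genes Mx1, Mx2 and Oas1a, the immunoproteasome subunit genes Psmb8 and Psmb9, and the peptide transporter gene Tap1. The members were the probes that the array annotation names after these genes, which gave 1 probe per gene, or 9 of the 41012 probes that are not controls. The probes were taken by gene name alone, but the genes were chosen with earlier results of these data known. The rats were adult male Sprague-Dawley animals with no allele or drug under study. After 1 cm of the left sciatic nerve had been cut out, the proximal sciatic nerve stump (SN) and the L4–6 dorsal root ganglia (DRG), which hold the cell bodies of the sensory axons, were taken at 0, 1, 4, 7 and 14 d. The 10 groups had 3 arrays each, 30 in all, and the 0 d group of a tissue was its control. The labels name no sham-operated rats. The labels count 30 rats in 5 groups, which would let both tissues of a day come from the same rats. The study's methods name 10 groups of rats, but for a nerve series that also had times before 1 d. They do not say which rats gave the ganglia of these arrays. Whether SN and DRG arrays are independent of each other is therefore not settled. How many rats the RNA of an array came from was not stated, so the spread between replicates may hold less than the whole spread between animals.

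Interferons are cytokines that switch cells into an antiviral and antigen-presenting state. Type I interferons act on genes with interferon-stimulated response elements, whereas interferon-gamma, made by T and natural killer cells, acts on genes with gamma-activated sites. Irf1 is a target of the gamma pathway, and Irf7, Mx1, Mx2 and Oas1a are classical targets of the type I pathway. In the immunoproteasome, the catalytic subunits encoded by Psmb8 and Psmb9 replace those encoded by Psmb5 and Psmb6, and the transporter of TAP1 and TAP2 carries the peptides to MHC class I molecules.

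The promoters are shown because several members moved together over the days. RefSeq promoter windows, from 250 bases before to 50 bases after the transcription start on assembly GRCr8, were held for 8 of the 9 members, without one for Mx2. Matches on both strands were sought for GAAANNGAA, the core of the interferon-stimulated response element (ISRE), and for TTCNNNGAA, the gamma-activated site (GAS), which reads the same on both strands. ISRE core matches lay in Irf7, Oas1a, Psmb8 and Tap1, and GAS matches in Irf1, Oas1a and Psmb8. Of all 33469 promoter windows of this length, 9.71% held the ISRE core, 8.87% the GAS letters and 17.5% either of them, against 5 of the 8 members. In the stretches below, 110 bases each and read 5′ to 3′ along the gene, capitals mark the matches, and in Oas1a a pair of ISRE core matches overlaps.
Irf1 promoter (GRCr8, chr10:38417722-38417831, plus strand): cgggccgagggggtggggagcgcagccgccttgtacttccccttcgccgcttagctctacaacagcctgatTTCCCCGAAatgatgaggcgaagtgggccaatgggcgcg
Irf7 promoter (GRCr8, chr1:205800053-205800162, minus strand): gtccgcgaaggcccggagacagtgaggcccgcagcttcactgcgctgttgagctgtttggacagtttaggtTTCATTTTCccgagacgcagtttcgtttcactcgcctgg
Oas1a promoter (GRCr8, chr12:41330356-41330465, plus strand): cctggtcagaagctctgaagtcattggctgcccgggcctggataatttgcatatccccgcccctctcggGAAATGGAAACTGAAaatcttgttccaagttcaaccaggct
Psmb8 promoter (GRCr8, chr20:4657026-4657135, minus strand): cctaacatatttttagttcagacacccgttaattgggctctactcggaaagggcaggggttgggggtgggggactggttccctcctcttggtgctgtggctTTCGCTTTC
Tap1 promoter (GRCr8, chr20:4668625-4668734, minus strand): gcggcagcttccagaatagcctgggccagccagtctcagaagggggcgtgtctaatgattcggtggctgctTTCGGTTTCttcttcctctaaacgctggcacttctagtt

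The single match in Irf1 began 142 bases before the start, that in Irf7 68 bases before it and that in Tap1 120 bases before it, while the ISRE core match of Psmb8 spanned the start itself. Psmb8, Tap1 and Psmb9 are neighbours on chromosome 20 in the MHC, beside Tap2, and Tap1 and Psmb9 are read in opposite directions from starts 457 bases apart, so that their promoter windows overlapped by 44 bases. Mx1 and Mx2 both lie on chromosome 11, with Fam3b between them. A match is a stretch of letters and not a shown binding site, and a window without one says nothing of the factor.

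**Figure D1:**
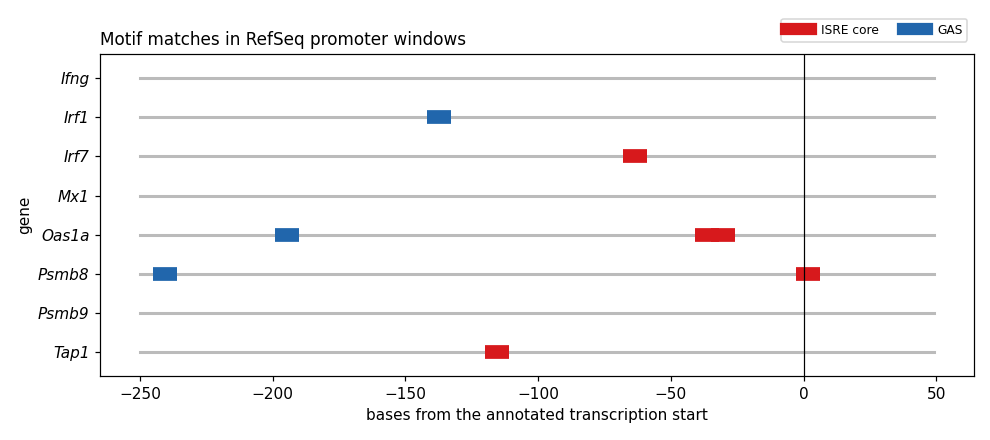
Matches of the ISRE core (red) and GAS (blue) motifs in the promoter windows of the 8 members held by RefSeq, with the position in bases from the annotated start on the horizontal axis and 1 line per gene. Irf1, Irf7, Oas1a, Psmb8 and Tap1 held at least 1 match, and Ifng, Mx1 and Psmb9 held none.

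The array saw each gene through a probe of 60 bases. The probes of Ifng and of both immunoproteasome subunits are given because the results turn on them.
Ifng probe (rn4, chr7:57625663-57625722, plus strand): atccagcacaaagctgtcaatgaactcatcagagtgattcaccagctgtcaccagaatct
Psmb8 probe (rn4, chr20:4787980-4788039, minus strand): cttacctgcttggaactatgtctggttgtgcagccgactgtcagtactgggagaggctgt
Psmb9 probe (rn4, chr20:4806341-4806400, plus strand): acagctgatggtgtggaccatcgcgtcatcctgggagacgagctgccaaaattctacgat
Probes of Irf1, Mx2 and Tap1 covered 235, 1896 and 1136 bp of genome, more than their own length, and their placement in exons was not analysed here. The Mx1 and Mx2 probes matched at no more than 22 of 60 bases in any ungapped placement, and the closest of all 36 member pairs at 28. Other family members with near-identical sequence, such as further Oas1 copies, may still share signal with a probe, which was not tested.

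Signal is given as the normalized signal, the log2 intensity of a probe minus the 75th percentile of its array, so 1 unit is a 2-fold difference, and levels of different genes are not compared because probes differ in brightness. Between 26914 and 35541 probes per array were well above background, with the fewest on DRG 0 d replicates 2 and 3. The 0 d arrays had the fewest in each tissue, 30220 to 31303 in SN against 33049 or more later. In DRG they had 26914 to 32586 against 33662 or more later. The 0 d arrays of both tissues were also scanned on a day on which no other array was. Every change against 0 d therefore rests on dimmer controls from a separate scan day. Markers of sensory neurons gave a summed signal of 8.91 to 9.24 in DRG and 0.48 to 2.40 in SN, and all 5 Schwann cell markers were well above background on every array, as the tissue labels would have it. Within a tissue no slide held arrays of 2 days, so slide and time cannot be told apart in any change over time. Each change against 0 d also shares the same 3 control arrays with the other days. In whole tissue, more cells of a type and more RNA per cell cannot be told apart.

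Ifng, which encodes interferon-gamma, was detected in SN from 4 d on. Its signal was -8.62, -8.23 and -8.40 on the 3 arrays of 0 d and -7.70, -7.71 and -7.79 on day 1, not well above background on any of these 6 arrays. It was -6.33, -6.21 and -4.88 on day 4, -4.99, -3.85 and -5.10 on day 7 and -4.51, -5.64 and -3.95 on day 14, well above background on all 9. No array of 4 d or later overlapped with those of 0 or 1 d, while the arrays of 4, 7 and 14 d overlapped one another. Against the background floor of the 0 d arrays, Ifng was at least 1.51-fold higher on day 4 (adjusted p = 0.000394), at least 3.37-fold on day 7 (adjusted p = 2.25e-05) and at least 3.26-fold on day 14 (adjusted p = 3.56e-05). It was also at least 2.71-fold higher on day 4 than on day 1 (adjusted p = 0.00715). Each adjusted p belongs to the fitted values, 0 and 1 d arrays under the background included, and not to the bound, and Ifng passed the filter on dim probes only through the days on which it was high. In DRG the Ifng probe was well above background on 1 of 15 arrays, replicate 2 of 14 d, and was not tested. Under normexp background correction with an added constant and quantile normalization, the changes against 0 d were 0.44, 0.82 and 0.82 on the log2 scale, and all 3 were under 2-fold (adjusted p = 0.0508, 0.00152 and 0.00189), while the step from 1 to 4 d was 0.41 (adjusted p = 0.0862).

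Irf1, an activator of interferon targets, rose in SN from 4 d and stayed higher on day 14. Its signal in SN was -1.35, -1.52 and -1.03 on day 0, -0.34, -0.39 and 0.09 on day 4, 0.08, 0.57 and 0.14 on day 7 and 0.15, -0.47 and 0.06 on day 14. All arrays of 4, 7 and 14 d lay above all of 0 d. The changes were 1.09 ± 0.21 (log2, SE, n = 3 against 3) on day 4, 1.56 ± 0.21 on day 7 and 1.21 ± 0.21 on day 14, with adjusted p = 0.000615, 3.88e-05 and 0.000353 in limma, and 0.35 ± 0.21 on day 1 with adjusted p = 0.154. Without SN 0 d replicate 2 or SN 4 d replicate 3, the change on day 4 was 0.94 to 0.98, under 2-fold. In DRG Irf1 was -2.36, -2.51 and -1.93 on day 0 and -1.51, -1.34 and -1.43 on day 7, without overlap. The DRG changes at 7 and 14 d, 0.84 ± 0.16 and 0.64 ± 0.16, had adjusted p = 0.00281 and 0.00776 but were under 2-fold.

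Irf7, the factor that amplifies the type I interferon response, had its highest mean on day 7 in both tissues, as Irf1 did. Its lowest mean was on day 1 in both, whereas that of Irf1 was on day 0. Psmb9 had the same lowest and highest days as Irf7 in both tissues, and Psmb8 and Tap1 had them in DRG. In SN it was 4.91, 5.23 and 6.15 on day 0, 4.84, 3.13 and 4.71 on day 1, 4.87, 4.87 and 6.02 on day 4, 6.50, 7.08 and 6.32 on day 7 and 5.21, 4.85 and 5.45 on day 14. In DRG it was 3.26, 3.79 and 4.94 on day 0, 3.09, 2.06 and 3.22 on day 1, 5.16, 5.59 and 5.13 on day 7 and 4.18, 3.91 and 4.59 on day 14. The arrays of 7 d lay above all others of the same tissue, and those of 1 d below those of 0 d. At 7 d Irf7 was higher by 1.21 ± 0.47 in SN (adjusted p = 0.0425) and by 1.30 ± 0.40 in DRG (adjusted p = 0.033). At 1 d it fell by 1.20 ± 0.47 in SN (adjusted p = 0.0435), and the DRG value of -1.21 ± 0.40 had adjusted p = 0.0531. These calls rest on few arrays. The call on day 7 was lost without any 1 of 5 of the 6 arrays in SN (all but 0 d replicate 3), with changes of 0.94 to 1.37, and likewise in DRG, with 0.93 to 1.38. The fall on day 1 was lost without SN 0 d replicate 2 or 3 or SN 1 d replicate 2, with changes of -1.30 to -0.65.

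Mx1 and Mx2, dynamin-like GTPases that block virus replication, also had their lowest mean on day 1 and their highest on day 7 in both tissues. Mx1 in SN was -0.16, -0.68 and 1.40 on day 0, 2.15, 3.0 and 1.99 on day 7 and 0.14, 0.33 and 0.75 on day 14, and in DRG -1.49, -1.54 and 0.27 on day 0, 0.46, 1.30 and 0.76 on day 7 and -0.75, -0.73 and 0.20 on day 14. The 0 d and 14 d arrays overlapped in both tissues, and the 7 d arrays lay above both. Mx1 rose on day 7 by 2.20 ± 0.69 in SN (adjusted p = 0.0153) and by 1.76 ± 0.51 in DRG (adjusted p = 0.0265). Mx2 in SN was 0.75, 0.10 and 1.74 on day 0 and 1.98, 2.76 and 2.09 on day 7, again without overlap, and rose by 1.41 ± 0.50 (adjusted p = 0.0275). In DRG Mx2 was 0.58, 0.79 and 1.83 on day 0 and 1.47, 2.23 and 1.91 on day 7, which overlapped, and its change of 0.80 ± 0.36 had adjusted p = 0.129. Without SN 0 d replicate 2 or SN 7 d replicate 2 the call of Mx1 was lost (1.76 to 1.89), as was that of Mx2 without either of these or SN 0 d replicate 1 (1.03 to 1.35). In DRG the Mx1 call was lost without 0 d replicate 1 or 2 or 7 d replicate 2 or 3 (1.45 to 1.80).

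Oas1a makes the oligoadenylates that activate RNase L. In SN it was 4.30, 4.12 and 5.12 on day 0, 3.98, 2.63 and 3.96 on day 1, 5.50, 6.09 and 5.44 on day 7 and 4.26, 4.11 and 5.0 on day 14. In DRG it was 3.32, 3.54 and 4.40 on day 0, 2.70, 1.84 and 3.01 on day 1, 4.46, 4.91 and 4.47 on day 7 and 3.69, 3.24 and 3.94 on day 14. In both tissues the 1 d arrays lay below and the 7 d arrays above those of 0 d. In SN Oas1a rose on day 7 by 1.17 ± 0.44 (adjusted p = 0.035), and in DRG it fell on day 1 by 1.24 ± 0.35 (adjusted p = 0.0287). The reverse pair, -0.99 ± 0.44 on day 1 in SN and 0.86 ± 0.35 on day 7 in DRG, did not pass, with adjusted p = 0.0673 and 0.0948. Without SN 0 d replicate 1 or 2 or SN 7 d replicate 1 or 2 the SN call was lost (0.96 to 1.25). The DRG call was lost without 0 d replicate 3 or 1 d replicate 1 or 2 (-1.33 to -0.90), and with DRG 0 d replicate 1 as the lone control, an alternative chosen after seeing the data, the value was -0.80.

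Of the immunoproteasome subunit genes, Psmb8 was called higher on 3 days in SN, and both were called in SN and DRG on day 7. Psmb8 in SN was 2.21, 2.06 and 2.20 on day 0, 2.95, 3.02 and 3.56 on day 4, 3.55, 4.04 and 3.50 on day 7 and 3.32, 2.81 and 3.47 on day 14, with every array of 4 d and later above those of 0 d. It rose by 1.02 ± 0.21 on day 4, 1.54 ± 0.21 on day 7 and 1.04 ± 0.21 on day 14 (adjusted p = 0.0012, 5.49e-05 and 0.00126). Psmb9 in SN was 2.74, 2.84 and 3.19 on day 0 and 4.07, 4.58 and 3.98 on day 7, and rose by 1.29 ± 0.25 (adjusted p = 0.00075), while its changes of 0.66 ± 0.25 on day 4 and 0.91 ± 0.25 on day 14 were under 2-fold (adjusted p = 0.0359 and 0.00841). In DRG both subunits rose on day 7. Psmb8 went from 0.34, 0.43 and 0.82 on day 0 to 1.59, 1.89 and 1.55 on day 7, a change of 1.15 ± 0.19 (adjusted p = 0.00123), and Psmb9 from 1.31, 1.16 and 1.83 to 2.30, 2.59 and 2.44, a change of 1.01 ± 0.21 (adjusted p = 0.00467). At 14 d both were 0.82 and 0.83 higher, under 2-fold, with adjusted p = 0.00546 and 0.00839. The DRG call of Psmb9, close to the 2-fold line, was lost without DRG 0 d replicate 1 or 2 or 7 d replicate 2 (0.88 to 0.95). Those of Psmb8 in SN were lost without SN 0 d replicate 2 (at 4 and 14 d), SN 4 d replicate 3, or SN 14 d replicate 1 or 3, with values of 0.83 to 0.97 on day 4 and 0.91 to 0.99 on day 14.

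Tap1, which pairs with Tap2 in the peptide transporter, was 0.29, -0.07 and 0.65 on day 0 in SN, 0.76, 0.99 and 1.69 on day 4, 1.99, 2.53 and 1.95 on day 7 and 1.53, 1.03 and 1.62 on day 14. In DRG it was -0.19, -0.15 and 0.50 on day 0, -0.36, -1.24 and -0.24 on day 1 and 0.80, 0.92 and 0.80 on day 7. In SN all arrays from 4 d on lay above those of 0 d, and in DRG those of 7 d did. Tap1 rose in SN by 1.87 ± 0.28 on day 7 (adjusted p = 0.000115) and by 1.1 ± 0.28 on day 14 (adjusted p = 0.00549), the latter lost without SN 0 d replicate 2 or SN 14 d replicate 3 (0.92 to 0.99). Its SN change on day 4, 0.86 ± 0.28, and its DRG change on day 7, 0.78 ± 0.24, were under 2-fold (adjusted p = 0.0194 and 0.034).

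**Figure D2:**
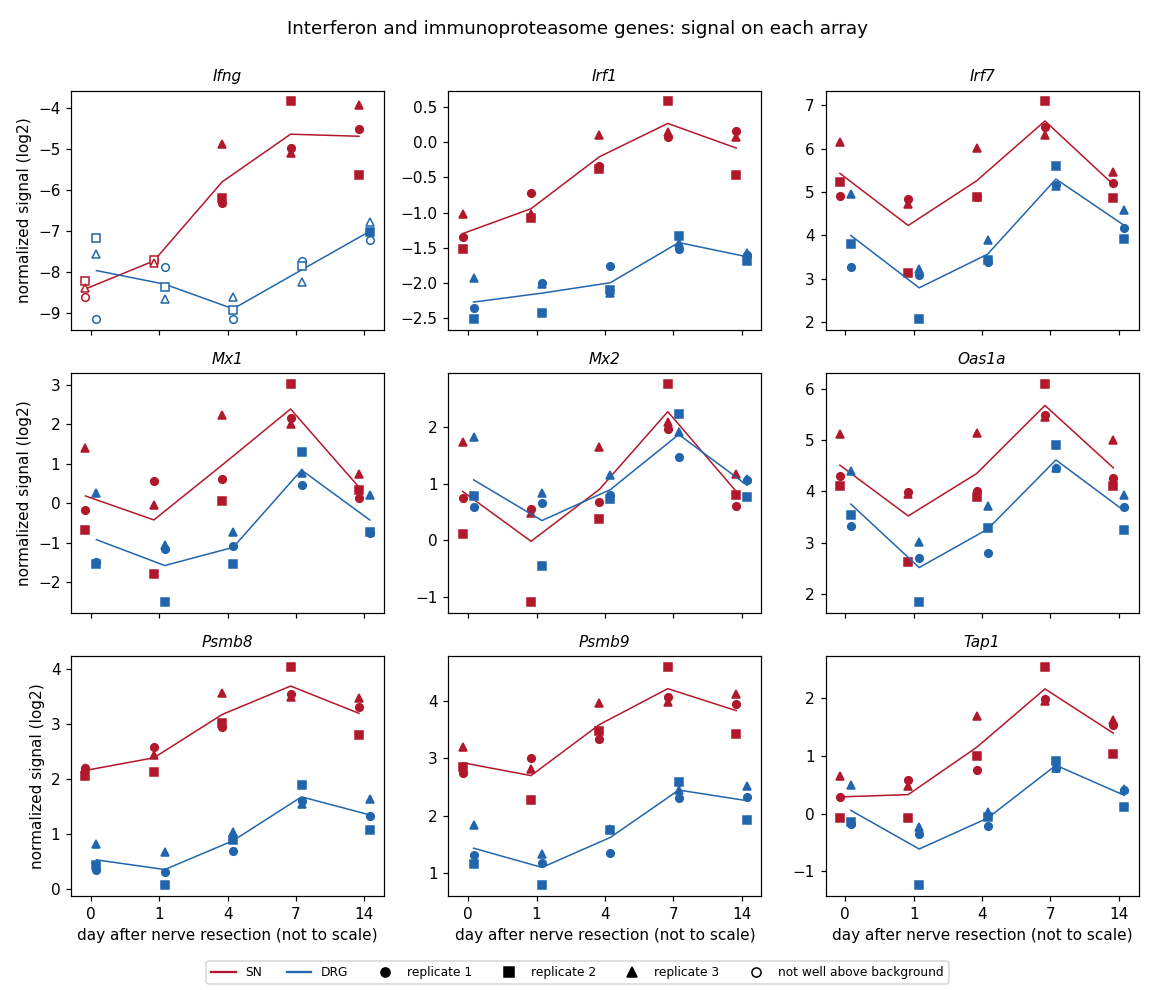
Normalized signal (log2) of the 9 genes on every array by day, SN in red and DRG in blue, with lines through the means of 3 arrays, marker shapes for replicate numbers and open markers where the probe was not well above background. Ifng left the background in SN on day 4. The means of all 9 genes were highest on day 7 in SN, and Irf1, Psmb8, Psmb9 and Tap1 were still above the 0 d arrays on day 14 in SN.

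Over the members, 7 d was the fullest day. In SN 0 of 9 members were called higher on day 1, 3 on day 4, 9 on day 7 and 4 on day 14, beside 18.6%, 15.9%, 18.1% and 14.3% of the 35157 probes tested, and 1 was called lower on day 1, beside 3.43%. Ifng, whose 0 d arrays were not above background and whose bound on day 4 was under 2-fold, is among those called on days 4, 7 and 14. Without it the counts were 2, 8 and 3 of 8. Arrays of 7 d and 0 d did not overlap for any of the 9, as for 42.3% of all probes in this direction. In DRG 0, 0, 4 and 0 of 8 members were called higher at 1, 4, 7 and 14 d, beside 7.44%, 6.04%, 6.58% and 13.0% of 34968 probes, and 1 was called lower on day 1, beside 0.169%. At 7 d the DRG arrays of 7 of 8 members lay above those of 0 d, as did those of 29.8% of all probes, and the exception was Mx2. In DRG on day 4 no member had even an unadjusted p under 0.05 in limma, and on day 14 3 had. The median change over the members on day 7 was 1.54 in SN and 0.94 in DRG, against 0.15 and 0.08 over all probes. The shares over all probes depend on the scaling. On day 7 in SN 6365 probes were called higher and 2395 lower, against 4051 and 3215 with quantile normalization, where the median over all probes was -0.0019 and the 9 members were again called higher. With slide as a random block, 5 of the 9 calls in SN on day 7 remained (Ifng, Irf1, Psmb8, Psmb9 and Tap1), and Mx1 had adjusted p = 0.0747, Mx2 0.115, Oas1a 0.122 and Irf7 0.149.

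From day to day few steps passed the test. Between 1 and 4 d in SN all 9 members had a higher mean on day 4, and Ifng was the one called (3.40% of all probes were). Between 4 and 7 d all 9 again had a higher mean, and Tap1 was called, by 1.01 ± 0.28 (adjusted p = 0.0296, beside 1.33% of probes). That call was lost without SN 4 d replicate 1 or 2 or SN 7 d replicate 1 or 2 (0.82 to 1.1) and with slide as a random block (0.97, adjusted p = 0.143). From 7 to 14 d all 9 had a lower mean, and for 6 the arrays did not overlap, as for 17.6% of all probes in this direction. None of the 9 was called lower (0.740% of probes were), with 6 at an unadjusted p under 0.05 in limma. The changes were -1.47 ± 0.47 for Irf7, -1.98 ± 0.69 for Mx1, -1.41 ± 0.50 for Mx2 and -1.22 ± 0.44 for Oas1a, with adjusted p between 0.0664 and 0.0942, against -0.05 ± 0.46 for Ifng and -0.35 ± 0.21 for Irf1. Fitted on the 6 arrays compared alone, the steps of Irf7, Mx1 and Mx2 from 7 to 14 d were called.

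In DRG the step from 4 to 7 d was the clearest in the levels. All 8 members had arrays of 7 d above all arrays of 4 d, as for 10.7% of all probes, and all 8 had an unadjusted p under 0.05. None was called (0.137% of all probes were), and the changes ran from 0.57 for Irf1 to 1.95 for Mx1, with adjusted p between 0.069 and 0.169. From 1 to 4 d none of 8 was called, beside 1.52% of probes, with 3 at an unadjusted p under 0.05. From 7 to 14 d all 8 had a lower mean and for 6 the arrays did not overlap, as for 9.41% of probes, but none was called lower, beside 0.0658%, with 4 at an unadjusted p under 0.05.

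**Figure D3:**
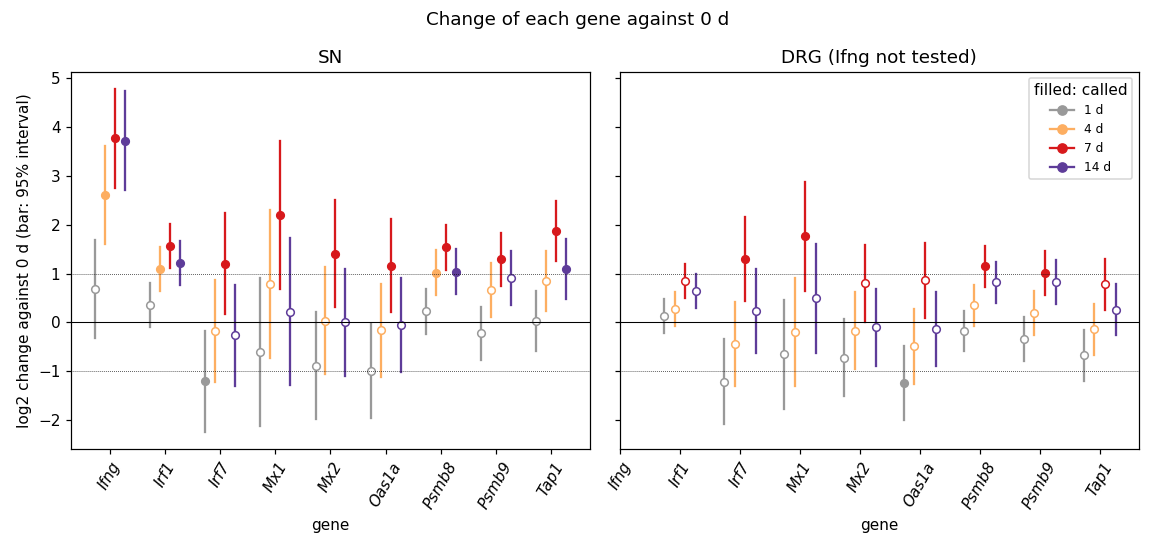
Change of each gene against 0 d (log2, points with 95% intervals from limma) in SN and DRG, with days in colour, filled points where the change was called and dotted lines at 2-fold. In SN all 9 genes are filled on day 7, and in DRG Irf7, Mx1, Psmb8 and Psmb9 are.

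Whether the changes differed between nerve and ganglia was tested by an interaction for the 8 members tested in both, in a fit that takes all 30 arrays as independent. The change of Irf1 was larger in SN than in DRG by 0.81 ± 0.27 on day 4 (adjusted p = 0.0158) and 0.72 ± 0.27 on day 7 (adjusted p = 0.0366), and that of Tap1 by 0.99 ± 0.38 (adjusted p = 0.0385) and 1.09 ± 0.38 (adjusted p = 0.028). These were 2 of 8 members on each day, beside 20.1% and 17.6% of 33796 probes. At 1 and 14 d no member was called, beside 15.9% and 12.9%, with 0 and 2 at an unadjusted p under 0.05. For the other members the intervals on day 7 were wide. That of Irf7 ran from -1.43 to 1.24 and that of Mx1 from -1.42 to 2.30, so neither a like nor an unlike change was shown. This fit took same-numbered SN and DRG arrays as independent, though their deviations correlated with r = 0.92 for Irf7 and 0.88 for Mx1. A block of same-numbered arrays, chosen after seeing the data, added calls of Mx1, Psmb8 and Psmb9 on day 4. It also added Tap1 on days 1 and 14. On the slides that held both tissues of a day, where single arrays stand for a group, the values were 1.03 and 0.71 for Irf1 and 1.29 and 0.89 for Tap1 at 4 and 7 d. A fit with slide as a fixed block, chosen after seeing the data, gave these same values from the same arrays, so it is no separate check. In it only Irf1 on day 4 kept its call. At 7 d the adjusted p was then 0.191 for Irf1 and 0.232 for Tap1, and with slide as a random block 0.0591 and 0.0524. The calls of Irf1 were also lost without DRG 0 d replicate 3 or SN 4 d replicate 3 on day 4 (0.65 to 0.66) and without any 1 of 6 arrays on day 7 (0.55 to 0.71), and those of Tap1 without any 1 of 6 arrays on day 4 (0.72 to 1.00) and 4 on day 7 (0.87 to 1.07), DRG 0 d replicate 3 being 1 of them each time.

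Before injury 3 of 8 members were called higher in SN than in DRG, beside 20.0% of probes. Psmb8 was higher by 1.63 ± 0.21 (adjusted p = 2.3e-07), Psmb9 by 1.49 ± 0.24 (adjusted p = 6.38e-06) and Irf7 by 1.43 ± 0.45 (adjusted p = 0.00759). For both subunits the arrays of the tissues did not overlap. For Irf7 they did, since DRG replicate 3, at 4.94, lay above SN replicate 1, at 4.91, and its call was lost without DRG 0 d replicate 1 or SN 0 d replicate 3 (1.06 to 1.07) and in the methods' t-test (adjusted p = 0.12). Irf1 was 0.97 ± 0.19 higher in SN, just under 2-fold (adjusted p = 7.61e-05), and was called with slide as a fixed block, chosen after seeing the data (1.06, adjusted p = 0.00226), and without DRG 0 d replicate 3 or SN 0 d replicate 2 (1.08 to 1.14). The Mx1 value of 1.11 ± 0.63 did not pass in the main fit (adjusted p = 0.125). It was called with a block of same-numbered SN and DRG arrays, chosen after seeing the data (adjusted p = 0.00122). Mx2, at -0.20 ± 0.46, was the 1 member with a lower mean in SN.

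Of the 8 members tested in both tissues, the antiviral ones and Irf7 varied most between replicates. The SD within groups in SN was 0.63 for Irf7, 0.93 for Mx1, 0.67 for Mx2 and 0.58 for Oas1a, against a median of 0.17 over 33381 probes, and 0.27 to 0.37 for Irf1, Psmb8, Psmb9 and Tap1. The arrays that stood out had the same replicate number in both tissues. Replicate 3 was the highest of 0 d for all 4 genes in SN (6.15 for Irf7 and 1.40 for Mx1) and in DRG (4.94 and 0.27), and replicate 2 was the lowest of 1 d (3.13 and -1.79 in SN, 2.06 and -2.51 in DRG) and the highest of 7 d in both tissues. Over the 15 same-numbered pairs of SN and DRG arrays of a day, the deviations from the group means correlated with r = 0.92 for Irf7, 0.88 for Mx1, 0.88 for Mx2 and 0.89 for Oas1a. For Psmb9, Tap1, Psmb8 and Irf1 the r was 0.82, 0.74, 0.72 and 0.43, and the median over all 33381 probes was 0.01. The array of the highest signal had the same number in both tissues on 4 of 5 days for these 4 genes, Irf7, Mx1, Mx2 and Oas1a, and also for Psmb9 and Tap1. That of the lowest signal did so on 4 days for Irf1, Irf7, Mx1 and Psmb8, on 3 for Mx2, Psmb9 and Tap1 and on 2 for Oas1a. Of 36 other antiviral genes measured, 30 had an r above 0.5, with a median of 0.81, against 1 of 16 constitutive proteasome subunits, with a median of 0.15. So had 9 of 12 GTPases and chemokines induced by interferon-gamma, 3 of 4 immunoproteasome partners and 9 of 18 MHC class I loading genes. Of MHC class II genes 2 of 8 did, and of interferon receptors 0 of 4. Over all probes the highest r were those of Mrps10 (0.99), Pip and Errfi1, and 11.1% reached at least the r of Irf1. A high r was thus not particular to antiviral genes. These are descriptions over arrays that share a day, a number and, for 5 of the 15 pairs, a slide. Nothing in the labels says that the same number marks the same rats, and where the shared deviations came from was not tested.

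**Figure D4:**
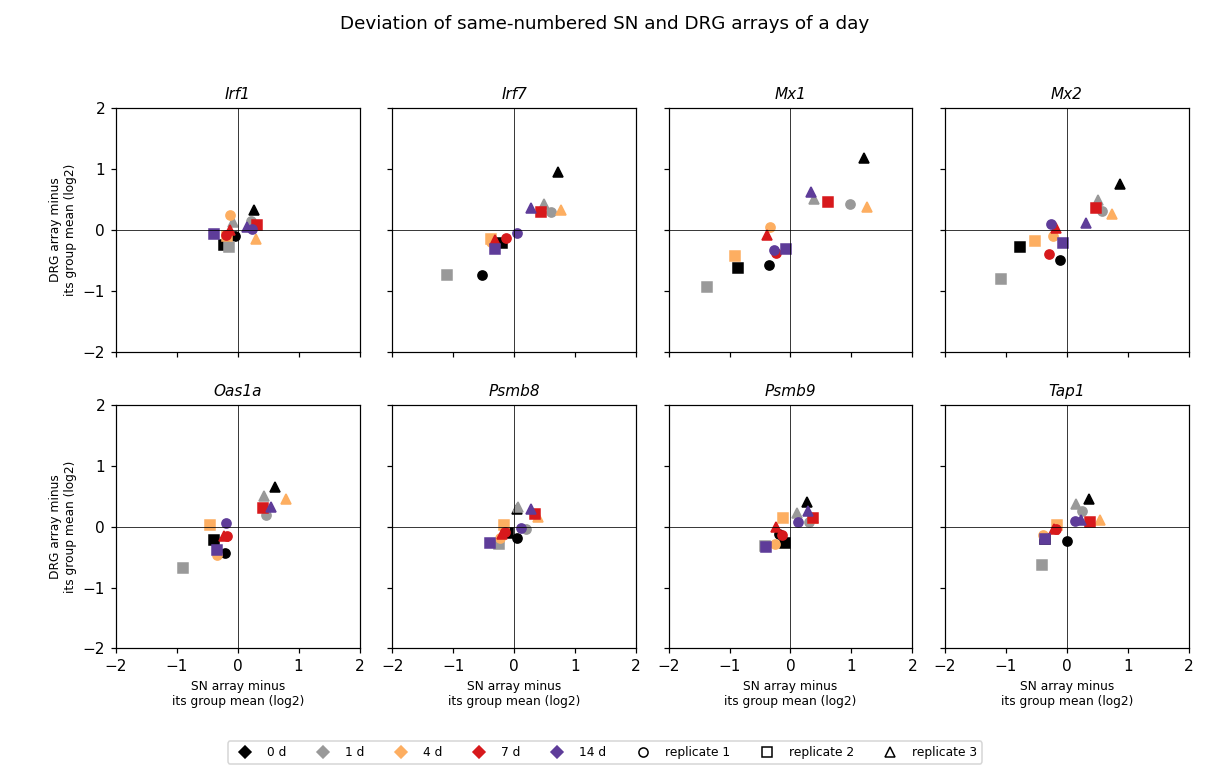
Deviation of each SN array from its group mean (horizontal, log2) against that of the DRG array of the same day and number (vertical, log2), 15 pairs per gene, with days in colour and replicate numbers as shapes. Points of Irf7, Mx1, Mx2 and Oas1a spread along the rising diagonal, with 1 d replicate 2 at the lower left and 0 d replicate 3 at the upper right.

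The other genes of the pathway gave the setting, by lists chosen for their known roles, and their counts on day 7 stand beside 18.1% of all probes called higher in SN and 6.58% in DRG. Of the interferon receptors, 1 of 4 tested was called higher in SN on day 7, Il10rb, which serves the type III receptor, by 1.04 ± 0.10. The interferon-gamma receptor chain Ifngr2 was 0.69 ± 0.09 higher (adjusted p = 5.2e-05, under 2-fold) and Ifngr1 0.09 ± 0.08. Of 9 signal transducers 4 rose, Stat2 by 1.58 ± 0.22 and the feedback inhibitor Socs1 by 1.63 ± 0.16 among them. The receptor chain Ifnar1 was 0.96 ± 0.15 higher (adjusted p = 0.00012), just under 2-fold, and Irf9 0.52 ± 0.17. Of the other interferon regulatory factors 2 of 7 rose, with Irf5 the largest at 1.84 ± 0.17. Among ligands and inducers 2 of 5 rose, Il18 by 2.60 ± 0.17 and Ifnb1, encoding interferon-beta. Ifnb1 was not well above background on any SN array of 0 d, and was at least 1.71-fold higher on day 7 (adjusted p = 2.03e-05) and at least 2.08-fold on day 1 (adjusted p = 1.2e-05), when none of the 9 members was called higher. As for Ifng, each adjusted p belongs to the fitted values and not to the bound, which on day 7 was under 2-fold. Its probe passed the filter on dim probes only through days after injury.

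Of 36 antiviral interferon-stimulated genes outside the members, 13 rose in SN on day 7 and 8 in DRG, and none fell on day 7. Zbp1, a sensor of viral nucleic acid, changed most in both, by 3.14 ± 0.57 in SN (adjusted p = 0.00046) and 2.12 ± 0.50 in DRG (adjusted p = 0.01). Isg15, a ubiquitin-like protein, did not pass in SN, at 1.51 ± 0.63 with adjusted p = 0.053, nor in DRG, at 1.48 ± 0.55 with adjusted p = 0.068. The median of this list was -0.43 on day 1, 0.15 on day 4, 0.94 on day 7 and 0.08 on day 14 in SN, and -0.44, -0.16, 0.79 and 0.01 in DRG, with the lowest median on day 1 and the highest on day 7 in both. Of 12 GTPases and chemokines induced by interferon-gamma, 11 rose in SN on day 7 and 7 in DRG. Ido1 and Nos2 among those in SN, and Ido1 and Cxcl11 among those in DRG, were not well above background on any 0 d array. Cxcl11, a T cell attractant, had the largest fitted change of the list in SN, 5.85 ± 0.83, with 1 of its 3 arrays of 0 d well above background, and was at least 7.49-fold higher in DRG (adjusted p = 0.00203). That adjusted p in DRG again belongs to the fitted values and not to the bound. In SN Cxcl10 rose by 3.02 ± 0.75 and Cxcl9 by 1.75 ± 0.30. Their list median was still 1.14 in SN and 0.71 in DRG on day 14.

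None of 16 constitutive subunits was called in either direction on any day in either tissue, and in SN on day 7 Psmb5 was at -0.27 ± 0.08, Psmb6 at -0.08 ± 0.08 and Psmb7 at -0.39 ± 0.09, with Psme4 the highest at 0.83. Of the 4 immunoproteasome partners none was called either. Psmb10, the third immunoproteasome subunit, was 0.97 ± 0.18 higher (adjusted p = 0.0005), just under 2-fold, and the activator genes Psme2 and Psme1 were at 0.61 ± 0.14 and 0.27 ± 0.15. In MHC class I peptide loading 9 of 18 rose in SN on day 7 and 1 in DRG. Tap2 rose by 1.01 ± 0.40 (adjusted p = 0.043) and the bridging protein gene Tapbp by 1.14 ± 0.22, while B2m, the light chain, was at 0.35 ± 0.13. Probes of RT1 class I genes can share signal with near-identical copies and are uncertain one by one. Of 8 MHC class II genes 7 rose on day 7 in each tissue, with list medians of 1.88 in SN and 2.52 in DRG.

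**Figure D5:**
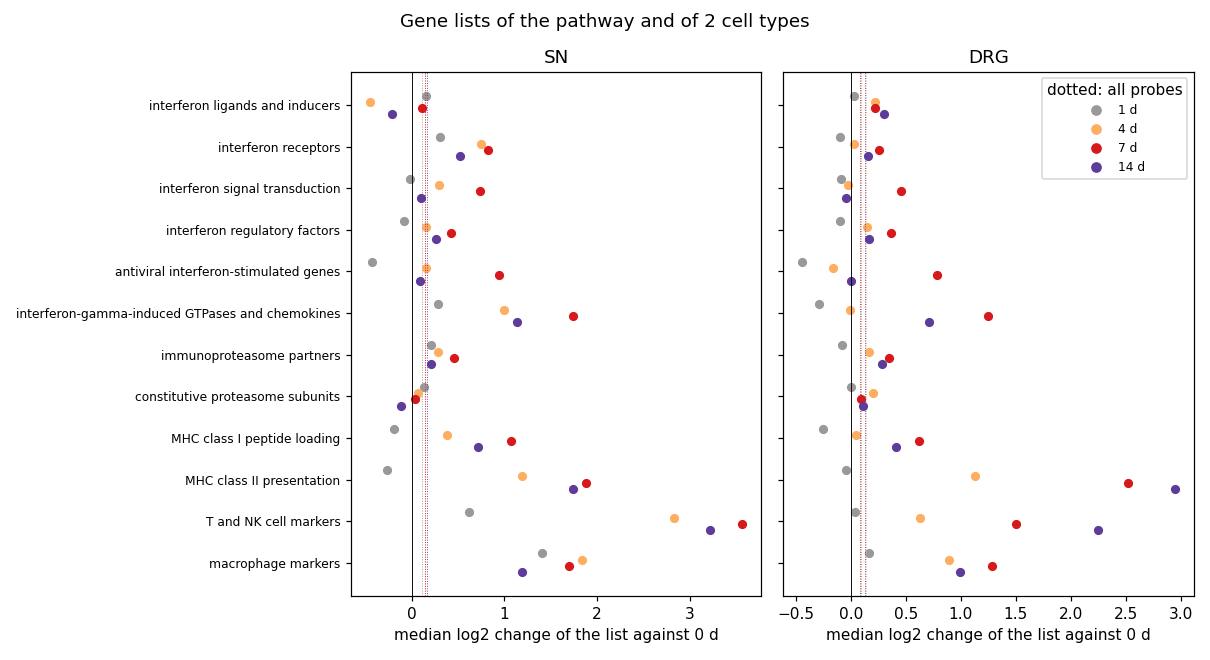
Median change against 0 d (log2) of the genes of each pathway list and of T and NK cell and macrophage markers, by day in colour, in SN and DRG on separate scales, with the median over all probes as dotted lines. Antiviral genes and MHC class I loading peak on day 7, MHC class II genes stay high on day 14, and constitutive proteasome subunits lie near 0.

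Markers of T and NK cells and of macrophages were also called higher, in SN some of them already on day 1, when no member was. All 14 T and NK cell markers were called higher in SN at 4, 7 and 14 d, beside 15.9%, 18.1% and 14.3% of all probes, and 6 on day 1, beside 18.6%. Their summed signal was 0.68 to 0.90 on day 0, 2.05 to 2.43 on day 1, 3.35 to 3.57 on day 4, 3.50 to 3.97 on day 7 and 2.94 to 3.85 on day 14. Cd3e, Cd247, Ncr1 and Trat1 were not well above background on any SN array of 0 d. In DRG 9 of 13 tested were called higher on day 7, beside 6.58% of all probes, and the sum went from 0.31 to 0.86 on day 0 to 1.54 to 1.77 on day 7 and 1.76 to 2.25 on day 14. Only 4 to 7 of the 14 markers were well above background on the DRG arrays of 0 d, and Cd3e and Cd247 were on none. In both tissues such markers passed the filter on dim probes only through later days, so their calls are partly set by that filter. Of 9 macrophage markers 7 were called higher in SN and 5 in DRG on day 7, with sums in SN of 4.79 to 4.90 on day 0, 6.03 to 6.42 on day 1, 6.76 to 7.06 on day 4 and 6.39 to 6.66 on day 7, and 2.97 to 3.64 and 4.47 to 4.63 in DRG. Neutrophil markers summed in SN to -0.45 to -0.03 on day 0, 3.10 to 4.01 on day 1 and 2.12 to 2.50 on day 7, and dendritic cell markers to -5.43 to -4.85, -1.88 to -1.76 and -1.44 to -1.03. In DRG neutrophil markers overlapped, with 1.37 to 3.01 on day 0 and 2.04 to 2.88 on day 7. B cell markers overlapped in both tissues, with -5.31 to -4.54 and -4.74 to -4.28 in SN and -3.83 to -1.77 and -3.72 to -3.50 in DRG. Dendritic cell markers in DRG were at -6.20 to -5.10 on day 0 and higher on day 7, at -4.70 to -4.57. On the 0 d arrays, 0 of these 3 markers were well above background in DRG and at most 1 in SN. Their sums on day 0 are thus near background and give no size of change. In the other direction, the sum of Schwann cell markers in SN was 8.71 to 9.03 on day 0 and 7.54 to 7.73 on day 7, and all 7 skeletal muscle markers were called lower in SN at 4 and 7 d, beside 6.78% and 6.81% of all probes, with a sum of 6.69 to 10.47 on day 0 and 2.48 to 6.09 on day 7. The part of these cells in the levels of the 9 genes was not tested.

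Beyond the lists, the genes whose signal ran most like that of each member were found over all 30 arrays after centring each tissue, as a description. Irf7, Mx1, Mx2 and Oas1a ran closest to H2-T23, Usp18, Isg15 and Isg15, with r of 0.98, 0.96, 0.97 and 0.98. Next came Ifi44 and Uba7 for Irf7, Igtp and Ifgga2l1 for Mx1, Usp18 and Oas1i for Mx2, and Ifi44 and H2-T23 for Oas1a. Irf1 ran closest to Fcgr3a (0.94), followed by Tifa and Ppm1n. Psmb8 ran closest to Calhm6 (0.96), followed by Fcgr3a and RT1-N3, Psmb9 to RT1-CE12 (0.95), followed by Ifi203 and RT1-N1, and Tap1 to RT1-CE7 (0.97), followed by Zbp1 and Parp9. Among the members Irf7 and Oas1a were most alike (0.98), and Irf1 and Oas1a least (0.62). The arrays share day, tissue and slide, and these values rest on those shared differences as well as on the replicates.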

How the data were processed

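The intensity values are the authors' deposited scanner output of 30 single-colour Agilent arrays, read with Agilent Feature Extraction 10.5.1.1, per the file headers with the background subtracted within each array and no normalization between arrays. The authors also deposited log2 values of the same arrays, with 1 distribution on all arrays, which were used as an alternative. Per the labels RNA was extracted with the mirVana kit, whereas the study's methods name Trizol.

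Here, flagged spots were dropped, spots of a probe averaged, and each array's 75th percentile over 41012 probes subtracted from log2 intensity. A probe was tested where some day had it well above background in all 3 replicates (35157 in SN, 34968 in DRG, 33796 in both). Limma 3.58.1 (R 4.3.3, statmod 1.5.0) was fitted to the 15 arrays of a tissue, or to all 30 for comparisons of tissues. Calls required a change over 2-fold with an adjusted p (Benjamini-Hochberg) under 0.05, or the adjusted p alone for interactions. The main fit had no block for replicate number. With 3 arrays per group, their number limits the precision. Scripts were tested on simulated data. Members and lists were chosen with earlier results of these data known. Named beside the 9 members are list examples set by role, the largest change of a list, and the 3 genes most like each member. Alternatives were quantile normalization, normexp with offset 50, the deposited log2 values, other filters, fits on the compared arrays alone, blocks for slide and replicate number, the methods' t-test and leaving out each array. The value of 1 listed gene is not reported here.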

Additional observations from a re-analysis of the deposited data

Results flagged for a closer look

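Differences between the tissues passed the interaction test for 2 members on 2 days. The change of Irf1 exceeded that in DRG by 0.81 at 4 d and 0.72 at 7 d (log2), and the change of Tap1 did so by 0.99 at 4 d and 1.09 at 7 d, each larger in SN, and beside 20.1% and 17.6% of 33796 probes on these days. On the slides that held both tissues the 4 values were 1.03, 0.71, 1.29 and 0.89, with single arrays standing for a group. At 4 d they rest on 1 SN array, replicate 3, without which both calls at 4 d were lost in the main fit. A fit with slide as a fixed block gave the same 4 values from the same arrays and is no separate check. In it Irf1 at 4 d alone was called. With slide as a random block the adjusted p at 7 d was 0.0591 for Irf1 and 0.0524 for Tap1.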

How the results depend on the processing

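No member changed direction under any alternative where it was called. The main counts of members called were 1, 3, 9 and 4 in SN and 1, 0, 4 and 0 in DRG on days 1, 4, 7 and 14, and 0, 2, 2 and 0 for the differences between tissues, with 2 steps between consecutive days called in SN and 0 in DRG. Leaving out 1 array at a time gave 0 to 1, 1 to 4, 5 to 9 and 2 to 5 in SN, 0 to 2, 0, 1 to 8 and 0 to 1 in DRG, 0, 0 to 3, 0 to 2 and 0 to 1 for the differences, 2 to 6 for the tissues on day 0, and 1 to 6 and 0 to 2 for the steps. The 1 call in SN on day 1 became 0 with quantile normalization, normexp, the deposited log2 values, the compared arrays alone, slide as a random block and both forms of the methods' t-test. Under normexp 1 was called in SN on day 4, 4 and 3 steps in SN and DRG, and 1 difference on day 14. Without a filter on dim probes 1 difference was called on day 14, that of Ifng, which the main fit left untested because its DRG signal was near background. The members tested in the main fit kept all their results there. With both groups required above background, 1 step was called in SN. On the compared arrays alone the counts were 0 and 2 in DRG on days 1 and 7, 1 and 1 for the differences on days 4 and 7, and 6 steps in SN. Slide as a random block gave 5 in SN on day 7, 1 step in SN and 0 differences on day 7. The methods' t-test gave 0 and 2 in DRG on days 1 and 7, 9 and 5 steps in SN and DRG without adjustment, and after Benjamini-Hochberg 5 in SN on day 7, 0 and 1 in DRG on days 1 and 7 and 1 step in SN. Of alternatives chosen after seeing the data, slide as a fixed block left 1 and 0 differences on days 4 and 7, and DRG 0 d replicate 1 as the lone control gave 0 and 1 in DRG on days 1 and 14. The cause of these changes was not tested. Over all probes, those called higher and lower were 6553 and 1206 in SN on day 1, against 4275 and 2521 with quantile normalization, 1640 and 637 with normexp and 4253 and 2534 with the deposited log2 values. On day 7 the 6365 called higher in SN and 2302 in DRG became 4051 and 1493, 1674 and 416, and 4024 and 1463 under the same alternatives.

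Replicate numbers are shared between groups, and over all probes they did not meet the criterion that every same-numbered pair correlate above 0.1, so the main fits had no block. Over 33381 probes, 4 of 15 same-numbered SN and DRG pairs had deviations correlating above 0.1 (range -0.19 to 0.25), and 8 of 15 SN arrays had their best partner under their own number. With the replicate block within a tissue, 2 members in place of 1 were called in DRG on day 1 (Irf7 by -1.21, adjusted p = 0.0386). With a replicate block of same-numbered SN and DRG arrays, chosen after seeing the data, 1, 5 and 1 differences were called on days 1, 4 and 14. The calls gained were Tap1 on days 1 (0.71, adjusted p = 0.018) and 14 (0.84, adjusted p = 0.00759), Psmb8, Psmb9 and Mx1 on day 4 (0.67, 0.48 and 0.98, adjusted p = 0.00636, 0.0302 and 0.0364) and Mx1 between the tissues on day 0 (1.11, adjusted p = 0.00122). A choice among several probes of a gene was not run, since each member had 1 probe. For Ifng in SN on days 0 and 1 and in DRG, signal near background limits the values to bounds.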
